A study of Bos taurus with 9 samples.

Results

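Bovine endometrial cells that received neither hormones nor interferon (the group CON) are described here, and they make up 3 of the 9 libraries in the series. They were taken as the libraries whose treatment is given as normal, namely CON1, CON2 and CON3, and all 17162 genes of the expression table were ranked by the mean of these 3 libraries. The cells came from uteri of Holstein cows, were of wild-type (WT) genotype, and grew in DMEM/F12 with 10% fetal bovine serum and penicillin-streptomycin at 37 °C in 5% CO2. The study's methods describe collagenase digestion of endometrium, several passages and purification by differential attachment, in which cell types are separated by how fast they settle on a dish. The labels call them primary epithelial cells from endometrium. The other 6 libraries, from cells given E2 and P4 (GA) or E2, P4 and IFNT (GB), were not compared with them. The study calls the 3 libraries biological replicates, but neither the labels nor the methods say how many cows stand behind them, so that animal and culture cannot be told apart in their spread.

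The lining of the bovine uterus holds a surface epithelium, glands that secrete nutrients for the embryo, and a stroma of fibroblasts around vessels. Estradiol (E2) and progesterone (P4) act on it mainly through nuclear receptors that bind DNA, and the state of these receptors changes through the estrous cycle. Interferon tau (IFNT) is the protein by which a ruminant embryo announces itself. It binds the type I interferon receptor, a pair of membrane proteins, and the signal runs through JAK kinases and STAT transcription factors to the interferon-stimulated genes. A baseline of these cells therefore comprises what they secrete, which receptors they carry and which lineage their transcription factors belong to.

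Levels were FPKM, in which the fragments of a gene are divided by its exon length and by the mapped reads of the library. The scale is meant to set genes of different length side by side. How well it does so for very short transcripts was not tested. A gene was counted as expressed when the mean of the 3 libraries reached an FPKM of 1, which 11856 of 17162 genes did (69.1%). The median gene lay at 9.55 FPKM. A mean of at least 100 FPKM was reached by 2092 genes (12.2%), of at least 1000 by 231 and of at least 10000 by 5. The libraries held 14452, 14492 and 14583 genes above 0. Pairs of libraries gave a Pearson r across genes, on the log2(FPKM + 0.5) scale, of 0.993 to 0.994 and a Spearman rho of 0.986. The median coefficient of variation between libraries was 14.0% for genes at 1 to 10 FPKM, 6.84% for genes at 10 to 100 and 5.42% for genes at 1000 or more. CON2 was the library farthest from the median of the 3 for 47.2% of the 8468 genes at 10 FPKM or more, against 25.9% for CON1 and 26.9% for CON3. The study states the sequencing depth of each library, but the expression table holds no read counts per gene, and intervals for counting error were therefore not given. In bulk RNA, fewer cells of a type and less RNA per cell cannot be told apart, which holds for every low level below.

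The most abundant transcripts belonged to the actin cytoskeleton and to calcium-binding S100 proteins. TMSB4X, which encodes the actin-sequestering peptide thymosin beta 4, stood first with 47314, 50937 and 50034 FPKM in CON1, CON2 and CON3. It alone held 3.51% ± 0.130 (SD, n = 3) of the FPKM sum of a library. Its relative TMSB10 followed with 31051, 26357 and 29289 FPKM, below TMSB4X in all 3 libraries. The S100 protein gene S100A4 was the third of the ranking and the most even of these, with 14670, 14639 and 14817 FPKM. EEF1A1, which brings aminoacyl-tRNA to the ribosome, reached 10891, 11508 and 11162 FPKM.

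The cytoplasmic actins came next, ACTB with 10038, 12587 and 10634 FPKM and ACTG1 with 8559, 10963 and 8811 FPKM. ACTB was higher than ACTG1 within each library, by a ratio of 1.18 ± 0.0295 (SD, n = 3), although their ranges over libraries overlapped. VIM, the intermediate filament protein vimentin, ranked 7 with 8658, 9570 and 9017 FPKM. Galectin 1 (LGALS1) had 7390, 9142 and 7812 FPKM, the highest value again in CON2. Among the others of the top 20 were the actin regulator PFN1 (6731 ± 321 FPKM, n = 3), the myosin light chain MYL6 (5397 ± 416), the glycolytic enzyme GAPDH (5365 ± 462), the annexin ANXA2 (4155 ± 222), the iron-storage subunit FTH1 (4011 ± 238) and the tubulin TUBA1B (3891 ± 193). The S100 protein S100A11 (7136 ± 48.4), the LIM domain protein CRIP1 (5164 ± 499) and the milk fat globule protein MFGE8 (4141 ± 89.9) belonged to them too, as did CTGF, THBS1 and TAGLN, which are described further on. In these 20 genes the highest library exceeded the lowest by 1.01- to 1.28-fold, with a median of 1.11-fold, and together they held 14.3% ± 0.448 of the FPKM sum. Several of them, including TMSB4X, EEF1A1, ACTB and ACTG1, have near-identical copies elsewhere in mammalian genomes, and how reads shared with such copies were assigned bears on their levels.

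**Figure D1:**
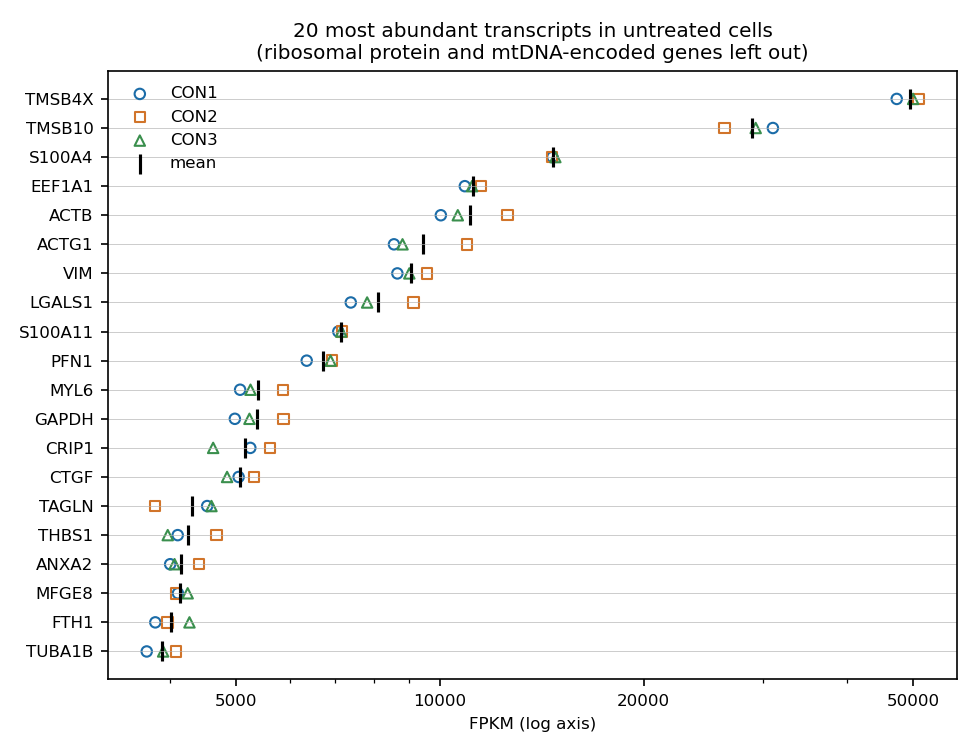
FPKM (log axis) of the 20 genes with the highest mean in untreated cells, leaving out ribosomal protein and mtDNA-encoded genes, with 1 open symbol per library (CON1, CON2, CON3) and a black tick at their mean. TMSB4X has a mean of 49428 FPKM and TUBA1B of 3891, and the 3 libraries of a gene differ by at most 1.28-fold.

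Genes for cytosolic ribosomal proteins and for the mitochondrial genome were ranked apart from these. The 83 ribosomal protein genes held 16.2% ± 0.353 of the FPKM sum, had a median of 2732 FPKM and filled 54 of the first 100 ranks. Their highest member was RPS28, with 5321, 7675 and 4157 FPKM, whose libraries differed more than those of RPS26 (5371 ± 299 FPKM), RPLP1 (5091 ± 155), RPL37A (4799 ± 171) and RPL37 (4796 ± 565). RPL10L, a testis-type copy of RPL10, was listed at 0, and RPL3L, known from striated muscle, was under 0.1 FPKM. The 13 protein-coding genes of mtDNA held 1.84% ± 0.10 of the FPKM sum, led by the cytochrome oxidase subunits COX1 (4142 ± 291 FPKM) and COX3 (3757 ± 578), the complex I subunit ND4L (2959 ± 233), COX2 (2949 ± 97.3) and ND4 (2319 ± 172). ATP8, which overlaps ATP6 on the mitochondrial genome, had only 48.7, 67.1 and 124 FPKM beside 2014 ± 71.5 FPKM for ATP6. ND1 was about as low, at 82.1 ± 11.6 FPKM, and whether overlap bears on such levels was not tested.

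At the level of RNA, the markers went against the epithelial label. Of 18 epithelial markers in the table, 2 reached 1 FPKM (11.1%, against 69.1% of all genes), the median was 0.147 FPKM, and their summed level was 55.2 ± 1.52 FPKM (n = 3), nearly all of it from 2 genes. Those were SPINT2, a membrane-bound protease inhibitor, with 42.6, 41.2 and 41.2 FPKM, and MARVELD2, the tricellular junction protein tricellulin, with 10.9, 10.8 and 9.61 FPKM. SPINT1, a relative of SPINT2, had 1.11, 1.10 and 0.62 FPKM, and the count of expressed markers was 4 without CON3 and 3 without CON1, or 4 at a threshold of 0.5 FPKM. The keratins of simple epithelia, which form their intermediate filaments, were near 0. KRT18, the keratin that the study's methods stained to judge purity, had 0.25, 0.41 and 0.16 FPKM. That stain reads protein and was not analysed here. KRT8, its usual partner, had 0, 0 and 0.55 FPKM, KRT19 had 0.18, 0.09 and 0.34 FPKM, and KRT7 had 0, 0.07 and 0 FPKM. Among all 17 keratin genes of the table only KRT80 was expressed, with 7.59, 7.60 and 7.38 FPKM.

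Junction proteins of epithelia were as low. CDH1, the cadherin that holds epithelial cells together, had 0, 0.04 and 0.03 FPKM, and the desmosomal plaque protein DSP had 0.08, 0.12 and 0.11 FPKM. The tight junction claudins CLDN1 and CLDN7 and the membrane protease ST14 were listed at 0 in all 3 libraries, while CLDN3, CLDN4 and OCLN stayed at or under 0.45 FPKM in each. CRB3, a polarity protein, was listed at 0 in CON1 and CON3 and had 2.03 FPKM in CON2. The cell-surface mucin MUC1 had 0.11, 0.20 and 0.24 FPKM. The cadherins of mesenchymal cells, named here after their values were seen, were present in contrast to CDH1, CDH11 with 125, 122 and 129 FPKM and CDH2 with 19.3, 18.8 and 19.4 FPKM. EPCAM and PROM2 of the same marker list were not analysed here.

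All 19 stromal fibroblast markers were expressed, against 69.1% of all genes, and 18 reached 100 FPKM, against 12.2% of all genes. Their median was 523 FPKM and their summed level 38189 ± 435 FPKM, or 2.72% ± 0.0330 of the FPKM sum. S100A4 and VIM, which many kinds of cultured cells make, gave the largest part. The 13 matrix members without them each exceeded 100 FPKM and summed to 13432 ± 163 FPKM. The fibrillar collagen chains COL1A2 (2758, 2639 and 2791 FPKM) and COL1A1 (2544, 2335 and 2490 FPKM) led these, followed by SPARC, a collagen-binding glycoprotein (2215 ± 131 FPKM). The small leucine-rich proteoglycans decorin (DCN) and lumican (LUM) had 850 ± 64.4 and 701 ± 11.3 FPKM. At the cell surface, THY1 had 508, 516 and 544 FPKM. The receptors for platelet-derived growth factor, PDGFRB and PDGFRA, had 276 ± 21.9 and 150 ± 7.20 FPKM, and the lowest member was the surface protease FAP with 18.2, 16.3 and 17.1 FPKM.

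Contractile genes of smooth muscle were all expressed, most of them at high levels. Of 14 smooth muscle and pericyte markers 11 were expressed (78.6%, against 69.1% of all genes). These were all 8 contractile markers and 3 of 6 pericyte markers. The actin-binding protein transgelin (TAGLN) had 4534, 3795 and 4601 FPKM and smooth muscle actin (ACTA2) had 2717, 3211 and 2641 FPKM, followed by calponin (CNN1, 671 ± 28.9 FPKM), desmin (DES, 250 ± 6.82) and smoothelin (SMTN, 147 ± 4.33). MYH11, the myosin heavy chain of mature smooth muscle, had only 2.36, 3.02 and 3.01 FPKM, and MYOCD, the coactivator that drives the smooth muscle program, had 1.27, 0.99 and 1.46 FPKM. Of the pericyte markers, CSPG4 had 75.5 ± 2.98 FPKM, whereas RGS5 had 0.96, 0 and 0 FPKM and the potassium channel gene KCNJ8 had 0, 0.17 and 0.08 FPKM.

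Markers of other cells that an endometrial culture could hold were mostly low. Among 12 endothelial markers 2 were expressed (16.7%, against 69.1% of all genes). Those were the cadherin CDH5 (1.63, 1.01 and 1.65 FPKM) and the sialomucin EMCN (1.01, 0.76 and 1.78 FPKM). The summed level of the 12 ran from 3.69 to 5.36 FPKM per library. PECAM1 had 0.19, 0.09 and 0.09 FPKM and CLDN5 was listed at 0. Of 10 immune markers 4 were expressed (40.0%). The lipopolysaccharide co-receptor CD14 led them with 19.1, 20.8 and 20.7 FPKM, ahead of the lysosomal protein CD68 (3.56 ± 0.412) and the invariant chain CD74 (2.40 ± 0.619). The integrin ITGAM and the granule protein NKG7 were listed at 0, and PTPRC, the pan-leukocyte marker, was not analysed here. Of 5 mesothelial markers, the uroplakin UPK1B had 63.0, 70.2 and 67.5 FPKM and mesothelin (MSLN) 2.66, 3.85 and 3.34 FPKM, while LRRN4 and PKHD1L1 were listed at 0.

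**Figure D2:**
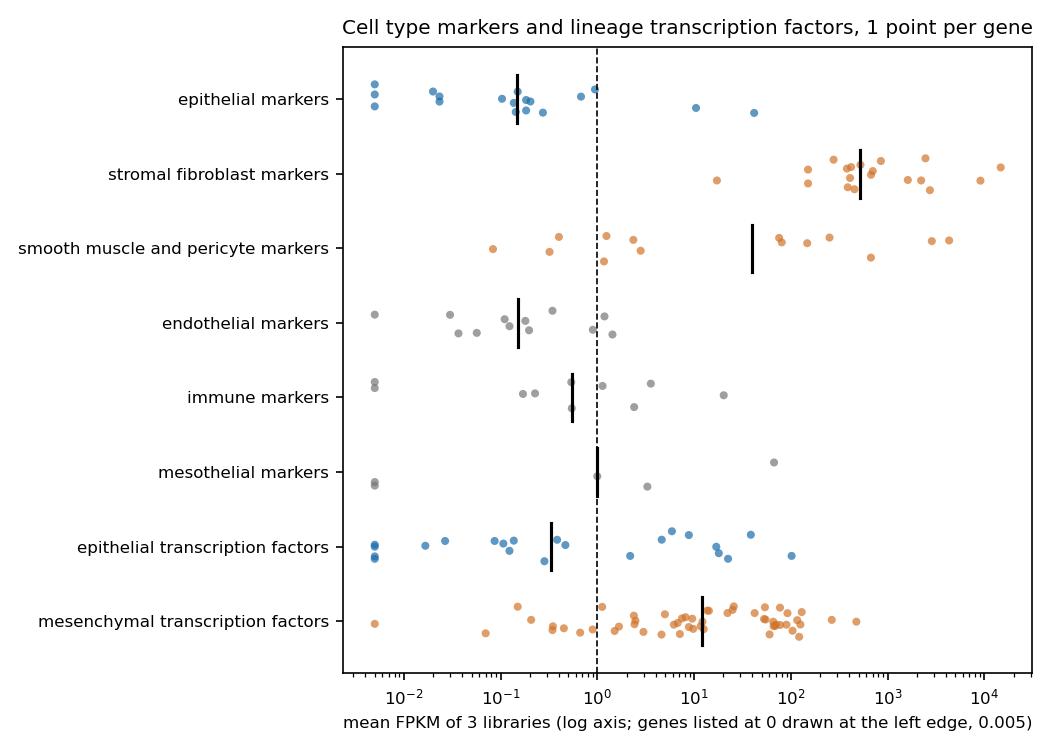
Mean FPKM over 3 libraries (log axis) of each gene of 6 marker lists and 2 lists of lineage transcription factors, 1 point per gene, with a black bar at the median of a list and a dashed line at 1 FPKM, and genes listed at 0 drawn at the left edge. The medians lie at 0.147 FPKM for epithelial markers and 523 FPKM for stromal fibroblast markers, and at 0.333 and 11.9 FPKM for epithelial and mesenchymal transcription factors.

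The lists of transcription factors divided in the same direction as the marker lists, but less sharply. Members of both were chosen with earlier results of these data known, so the likeness is no independent support. Of 54 factors of mesenchymal and stromal lineages 45 were expressed (83.3%, against 69.1% of all genes). Of 22 factors of epithelial lineages 9 were expressed (40.9%). Of the 22, 1 reached 100 FPKM. Among the 54, 7 did, a share near the 12.2% of all genes. The paired-related homeobox factors of limb and body wall mesenchyme led, PRRX1 with 470, 477 and 477 FPKM and PRRX2 with 290, 247 and 256 FPKM, and PRRX1 was higher in each library by a ratio of 1.81 ± 0.164. The T-box factor TBX3 (129 ± 7.13 FPKM), the nuclear receptor NR2F1 (116 ± 12.3) and the zinc finger factor GATA2 (104 ± 2.36) completed the set above 100 FPKM together with 2 factors known for repressing epithelial genes. Those were SNAI2, with 125, 127 and 124 FPKM, and TWIST2, with 123, 125 and 117 FPKM.

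Other repressors of CDH1 were expressed at lower levels. ZEB2 had 71.7, 65.8 and 59.2 FPKM and was above ZEB1 (23.0, 21.8 and 21.5 FPKM) by a ratio of 2.96 ± 0.189, TWIST1 had 43.3, 52.8 and 30.3 FPKM, and SNAI1 had 24.9 ± 2.07 FPKM. Factors known from the uterine stroma were present. HAND2, which mediates the P4 response of stroma in mice, had 74.1, 63.0 and 73.1 FPKM, and NR2F2 (COUP-TFII), another stromal factor, had 93.3, 93.7 and 89.0 FPKM. WT1, expressed in uterine mesenchyme, had 50.5, 52.5 and 55.0 FPKM, and FOXL2, a forkhead factor of ovary and ruminant endometrium, had 11.2, 8.17 and 9.90 FPKM. In this list EBF2 was listed at 0 and GATA4 and TBX5 had means of 0.0700 and 0.150 FPKM.

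Epithelial factors were mostly low, with 9 of 22 at 1 FPKM or more. Members of either list can be made by other lineages too, which was not tested. The gland factor FOXA2, the splicing regulator ESRP1 and OVOL1 were listed at 0 in every library. GRHL2, which maintains epithelial junction genes, had 0.05, 0 and 0 FPKM, FOXA1 had 0.07, 0.23 and 0.07 FPKM and ELF3 had 0.49, 0.39 and 0.27 FPKM. PAX8, a marker of Müllerian epithelium, had 4.04, 5.01 and 4.80 FPKM. The homeobox genes MSX1, with 101, 86.1 and 118 FPKM, and EMX2, with 39.4, 37.2 and 38.8 FPKM, were the highest of the list, ahead of TFAP2C (22.4 ± 0.967 FPKM), KLF5 (18.0 ± 1.72) and RUNX1 (16.9 ± 0.944). GRHL3, OVOL2, ELF5, EHF, TP63 and CDX2 were not analysed here.

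HOX genes, whose combination marks position along the body and along the reproductive tract, had their highest levels among posterior genes of HOXA and HOXD. Of 36 HOX genes 20 reached 1 FPKM (55.6%, against 69.1% of all genes). HOXA10, needed in the uterus for implantation, was the highest with 151, 112 and 202 FPKM, lowest in CON2 and highest in CON3. It stood above HOXA11 (47.4, 31.7 and 40.6 FPKM) in every library by a ratio of 3.90 ± 0.949. HOXD11 (33.8, 36.3 and 46.8 FPKM), HOXA9 (38.9, 27.7 and 40.6 FPKM) and HOXD9 (32.4, 31.5 and 31.9 FPKM) followed, and the ranges of HOXA11, HOXD11 and HOXA9 overlapped. The HOXA cluster held 60.7% of the summed FPKM of the family and HOXD 31.3%, against 4.36% for HOXC and 3.68% for HOXB. HOXA13, the HOXA gene at the posterior end, had 4.13, 2.94 and 4.73 FPKM, while HOXA2 had 0.20, 0.31 and 0.10 FPKM. Within HOXD, HOXD12, the neighbour of HOXD11, had 0.15, 0 and 0.29 FPKM, and the more anterior HOXD4 (22.2 ± 2.08 FPKM) stood beside HOXD10 (21.4 ± 4.61). Posterior genes of the other clusters were low, HOXB9, HOXC10 and HOXC11 with means of 0.353, 0.28 and 0.42 FPKM.

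**Figure D3:**
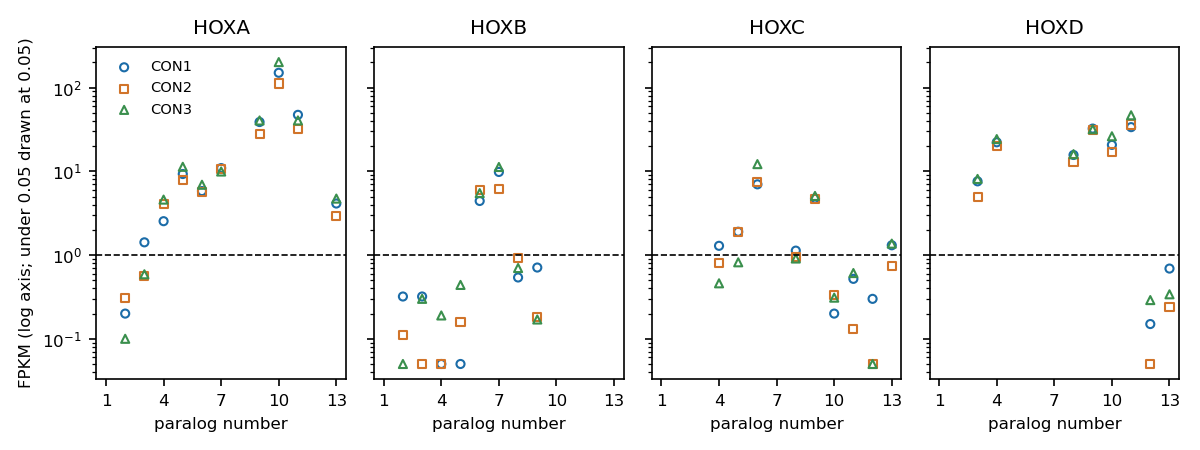
FPKM (log axis) of the HOX genes reported by cluster and paralog number, with 1 open symbol per library and a dashed line at 1 FPKM, and values under 0.05 drawn at 0.05. HOXA rises from HOXA2 at 0.10 to 0.31 FPKM to HOXA10 at 112 to 202 FPKM, and HOXD falls from 33.8 to 46.8 FPKM at HOXD11 to at most 0.29 FPKM at HOXD12.

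Of the 15 genes for E2, P4 and interferon receptors in the table, 12 were expressed (80.0%, against 69.1% of all genes). ESR1, the nuclear E2 receptor alpha, had 6.79, 9.67 and 7.95 FPKM and ranked 8930 of 17162 genes. Its relative ESR2 had 0.33, 0.39 and 0.19 FPKM, below ESR1 in every library, and the membrane receptor GPER1 had 0.41, 0.75 and 0.69 FPKM. The nuclear P4 receptor PGR had 11.2, 11.7 and 11.2 FPKM and ranked 8120. PGR was higher than ESR1 in each of the 3 libraries, by a ratio of 1.42 ± 0.220, and their ranges did not overlap. Both lay near the median of all genes.

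The P4-binding membrane components were more abundant than the nuclear receptor. PGRMC2 had 172, 148 and 156 FPKM and PGRMC1 had 122, 121 and 144 FPKM, which set them above PGR by ratios of 14.0 ± 1.34 and 11.3 ± 1.31. Both are heme-binding proteins with other roles in the cell besides P4 binding. The membrane P4 receptors of the PAQR family were lower, PAQR6 at 6.87, 6.87 and 5.21 FPKM, PAQR8 at 4.17, 6.38 and 5.42 FPKM, PAQR7 at 1.31, 1.39 and 0.76 FPKM and PAQR5 at 0.60, 0.35 and 0 FPKM. In the order of the 6 expressed P4 receptor genes only PAQR6 and PAQR8 overlapped.

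Other steroid receptors spanned a wide range. The glucocorticoid receptor NR3C1, with 11.1, 9.72 and 12.0 FPKM, had a range that contained that of PGR. The orphan receptor ESRRA was the highest at 36.0, 38.6 and 35.4 FPKM, and the mineralocorticoid receptor NR3C2 had 0, 0.03 and 0.03 FPKM. All 12 chaperones and cofactors of steroid receptors were expressed, against 69.1% of all genes. The chaperones HSP90AB1 (999 ± 20.4 FPKM), HSP90AA1 (878 ± 10.9) and the co-chaperone PTGES3 (536 ± 39.3) led them, and the immunophilin FKBP4 had 207 ± 13.9 FPKM. The corepressor NCOR1 had 36.5 ± 3.05 FPKM, and the coactivators NCOA3, NCOA1 and NCOA2 had 24.0 ± 0.188, 18.4 ± 0.166 and 7.01 ± 0.746 FPKM.

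Enzymes that make or inactivate steroids were present in part, 9 of 18 at 1 FPKM or more (50.0%, against 69.1% of all genes). HSD17B12, which acts in fatty acid elongation as well as on estrone, led with 66.5, 65.7 and 66.5 FPKM. SRD5A1, which reduces P4 and testosterone, had 12.9, 14.6 and 14.6 FPKM. Aromatase (CYP19A1), which makes estrogens, and HSD17B2, which inactivates E2, were listed at 0 in every library. Of 14 genes known to respond to steroids 9 were expressed (64.3%), again near the 69.1% of all genes. IGFBP4 (655, 620 and 707 FPKM) and the chemokine CXCL12 (261, 353 and 236 FPKM) led, and TSC22D3, a glucocorticoid-induced gene, had 84.1 ± 6.90 FPKM. GREB1, an E2 target of breast and uterus, had 0.09, 0.11 and 0.38 FPKM and the oxytocin receptor OXTR had 0.09, 0 and 0.17 FPKM. IHH, an epithelial P4 target, and LTF, an epithelial E2 target in rodents, were listed at 0.

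**Figure D4:**
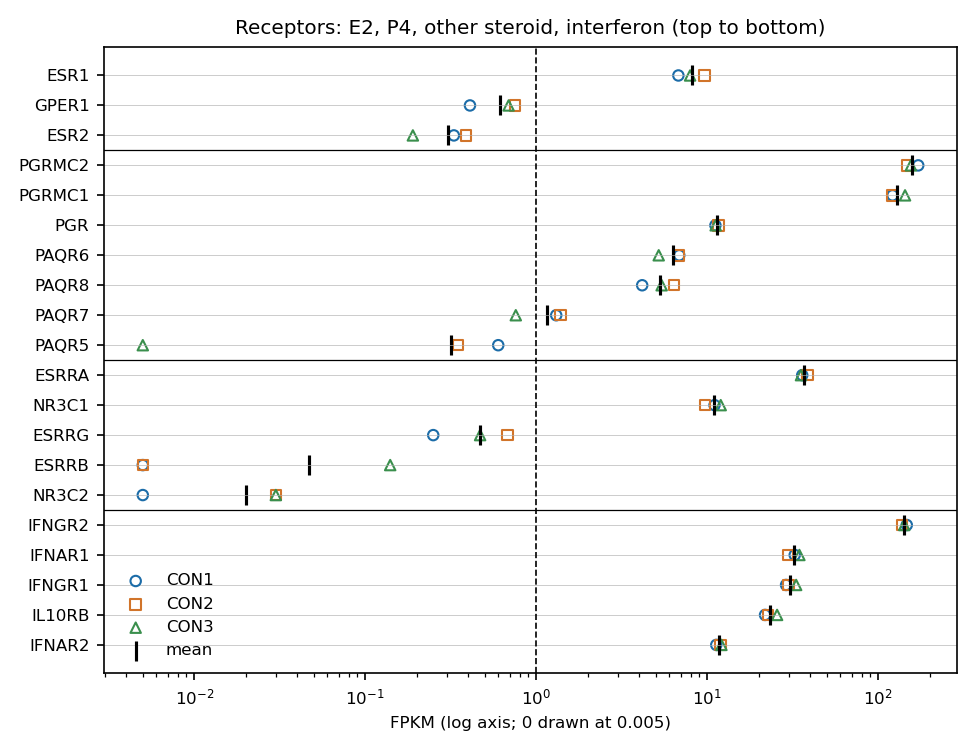
FPKM (log axis) of the receptor genes reported, in each library, from top to bottom for E2, P4, other steroids and interferons, with open symbols for CON1, CON2 and CON3, a black tick at the mean, a dashed line at 1 FPKM and 0 drawn at 0.005. ESR1 (6.79 to 9.67 FPKM) lies below PGR (11.2 to 11.7), and IFNAR1 (29.7 to 34.7) above IFNAR2 (11.3 to 12.1).

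Both chains of the type I interferon receptor, which IFNT binds, were expressed. IFNAR1 had 32.5, 29.7 and 34.7 FPKM and IFNAR2 had 11.3, 12.0 and 12.1 FPKM, with IFNAR1 the higher in each library by a ratio of 2.74 ± 0.225. For the type II receptor, IFNGR2 had 147, 138 and 142 FPKM and IFNGR1 had 29.0, 30.0 and 33.2 FPKM, a range that overlapped that of IFNAR1. IL10RB, a chain shared by the receptors for interferon lambda and interleukin 10, had 21.8, 22.7 and 25.7 FPKM, and IFNLR1 was not analysed here.

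Of 17 signal transducers and regulators behind these receptors, 16 were expressed (94.1%, against 69.1% of all genes). The receptor-bound kinase JAK1 had 83.9, 80.2 and 81.7 FPKM, above its partner TYK2 (15.7, 16.5 and 14.7 FPKM) by a ratio of 5.26 ± 0.360. STAT2, which carries the signal to the nucleus, had 13.3, 12.0 and 13.2 FPKM. IRF9, which joins it in the complex that binds DNA, had 22.8, 23.3 and 26.6 FPKM. IRF3 and IRF7, which drive interferon genes themselves, had 62.9 ± 2.60 and 57.9 ± 6.96 FPKM. Negative regulators were present too, SOCS3 at 42.5 ± 1.42, SOCS1 at 6.45 ± 0.646 and USP18 at 3.71, 2.51 and 3.30 FPKM.

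Interferon-stimulated genes were expressed about as often as other genes, with a few abundant members. In the table were 50 of them and 36 were expressed (72.0%, against 69.1% of all genes), with a median of 3.41 FPKM, below the 9.55 FPKM of all genes. B2M, the light chain of MHC class I, had 3015, 3425 and 3573 FPKM, and the membrane proteins IFITM1 and IFITM3, whose family members are close in sequence, had 1100 ± 59.7 and 631 ± 36.4 FPKM. Among the antiviral effectors, MX1 had 7.00, 5.91 and 6.92 FPKM and the kinase EIF2AK2 had 23.9, 21.2 and 24.4 FPKM. ISG15, the ubiquitin-like modifier known from the pregnant endometrium, differed between libraries, with 1.76, 4.74 and 7.01 FPKM. The sensors DHX58 (2.05, 2.29 and 2.45 FPKM) and IFIH1 (0.37, 0.43 and 0.58 FPKM) were low, RSAD2 had 0.53, 0.31 and 0.20 FPKM and MX2 had 0.05, 0.05 and 0.09 FPKM. OAS2, IFI44, IFI44L, CXCL11 and PLAC8 were listed at 0 in all 3 libraries.

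Secreted products formed the other large body of transcripts. Of 278 genes in the list 222 were expressed (79.9%, against 69.1% of all genes). Of the 278, 104 reached 100 FPKM, beside 12.2% of all genes, and 17 reached 1000 FPKM, beside 1.35% of all genes. With the collagen chains the list held 6.38% ± 0.152 of the FPKM sum. This share includes galectins, lysosomal proteins and B2M, of which much stays inside the cell or on its surface, and it was 4.73% when 22 such members were left out. Matricellular and matrix glycoproteins were the largest class, with 52 of 52 expressed (against 69.1% of all genes) and 1.92% ± 0.0849 of the FPKM sum. Among them CTGF, a growth factor-binding matrix protein also called CCN2, had 5046, 5315 and 4852 FPKM and THBS1, thrombospondin 1, had 4102, 4679 and 3965 FPKM. CTGF was above THBS1 in every library. SPP1 (osteopontin), an integrin ligand secreted in the uterus during implantation, had 3325, 3550 and 3407 FPKM and ranked 50 of all genes. Tenascin C (TNC) followed at 2569, 2756 and 2597 FPKM, below SPP1 by a ratio that hardly varied (1.298 ± 0.0125).

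Collagens were led by types I and VI. Of 39 chains measured, 23 were expressed (59.0%, against 69.1% of all genes), with 0.830% ± 0.0204 of the FPKM sum. COL1A2 exceeded COL1A1 in each library by a ratio of 1.11 ± 0.0243, and COL6A1 (1632, 1599 and 1608 FPKM) and COL6A2 (1369, 1498 and 1342 FPKM) were both higher than COL6A3 (663, 694 and 660 FPKM). COL3A1, the other fibrillar chain of stroma, had 386 ± 16.3 FPKM, lower than COL1A1 by a ratio of 6.36 ± 0.0851. The basement membrane chains COL4A1 and COL4A2 had 577 ± 71.1 and 357 ± 44.0 FPKM. COL17A1, the hemidesmosomal collagen of epithelia, had a mean of 0.0200 FPKM and COL4A3 was listed at 0. Of the laminins, LAMB1 (337 ± 3.62 FPKM) and LAMC1 were the highest, while LAMB3, which belongs to the laminin of epithelial adhesion, had a mean of 0.273 FPKM.

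Matrix proteases and their inhibitors were both abundant. The gelatinase MMP2 had 2376, 2341 and 2380 FPKM, and TIMP1, which inhibits matrix metalloproteinases, had 2164, 2499 and 2280 FPKM, so that their ranges overlapped with a ratio of 1.03 ± 0.0820. TIMP3 and TIMP2 had 1166 ± 77.3 and 967 ± 30.5 FPKM. The collagen-degrading cathepsin CTSK (1179 ± 80.6 FPKM) and the secreted protease HTRA1 (768 ± 9.68) followed among proteases. Plasminogen activators PLAT and PLAU had means of 197 and 183 FPKM. MMP13 was near 0, with a mean of 0.0267 FPKM, and SERPINA14, the uterine milk protein gene of ruminant glands, was listed at 0.

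Transcripts of growth factors came from several families. ADM, the vasodilator adrenomedullin, had 710, 639 and 795 FPKM, and EREG (epiregulin), a ligand of the EGF receptor, had 460, 446 and 525 FPKM. FGF2 had 373, 338 and 356 FPKM and FGF7, a stromal factor that acts on epithelia, had 146, 130 and 141 FPKM. VEGFA, which drives vessel growth, had 168, 178 and 213 FPKM. CSF1, the macrophage growth factor, had 371 ± 30.3 FPKM and pleiotrophin (PTN) had 366 ± 35.6 FPKM. AREG, another EGF receptor ligand, had 0, 0.90 and 0.41 FPKM.

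BMP and WNT signals appeared with their inhibitors. GREM1, which binds BMPs, was the most even of them at 648, 651 and 649 FPKM, above BMP4 by a ratio of 12.2 ± 1.41. FSTL1 had 543, 543 and 561 FPKM, and DKK1, an inhibitor of WNT signaling, had 280, 276 and 251 FPKM. WNT5A, a non-canonical WNT of stroma, had 442, 501 and 462 FPKM and WNT2 had 209, 223 and 239 FPKM. WNT4, known for its part in decidual stroma, had 18.9, 21.2 and 15.7 FPKM, and WNT7B had a mean of 0.197 FPKM. WNT7A, a WNT of uterine epithelium, was not analysed here.

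The insulin-like growth factor system consisted mainly of binding proteins. IGFBP6 (1132, 1004 and 1184 FPKM), IGFBP7 (1044, 1046 and 889 FPKM) and IGFBP4 were the highest, while the ligands IGF2 (2.81, 6.40 and 5.76 FPKM) and IGF1 (3.38, 2.56 and 1.42 FPKM) were low. IGFBP1, which decidual cells secrete in primates, had 0.17, 0.17 and 0.16 FPKM.

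Of 29 cytokines and chemokines 18 were expressed, a share near the 69.1% of all genes. MIF had 1408, 1803 and 1485 FPKM. The neutrophil attractant CXCL5, whose deposited description names the related CXCL6, had 779, 629 and 833 FPKM, and IL11, a cytokine of decidualization, had 495, 401 and 547 FPKM with its receptor IL11RA at 42.3 ± 3.75 FPKM. CXCL16 was even, at 254, 254 and 252 FPKM, and CXCL8 had 39.4, 31.5 and 50.4 FPKM. LIF, which mouse glands secrete for implantation, had 3.72, 4.41 and 4.34 FPKM. IL6 had 0.26, 0.53 and 0 FPKM, IL1A had 0, 0.54 and 0 FPKM, and IL33 and CX3CL1 were listed at 0.

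**Figure D5:**
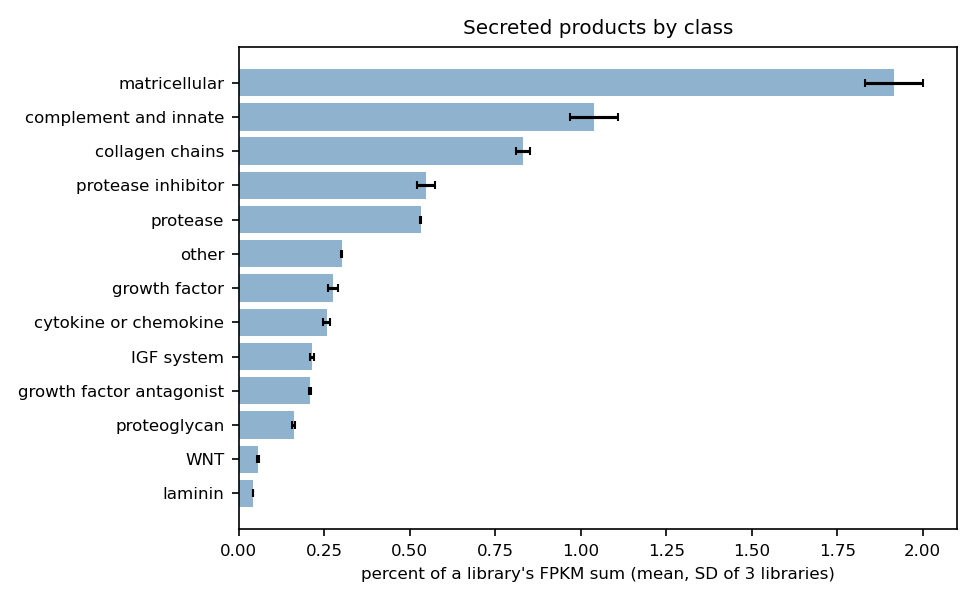
Share of a library's FPKM sum, in percent, held by each class of secreted products and by collagen chains, with bars at the mean and whiskers at the SD of 3 libraries. Matricellular proteins hold 1.92% and collagen chains 0.830%, while the galectins LGALS1 and LGALS3 and B2M make up most of the class of complement and innate factors.

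Of 80 receptors for growth factors and cytokines 66 were expressed (82.5%, against 69.1% of all genes). The atypical CXCL12 receptor ACKR3 had 330, 409 and 340 FPKM and the receptor tyrosine kinase AXL had 337, 335 and 348 FPKM. ENG, a coreceptor for TGF-beta, had 202 ± 7.94 FPKM and FLT1, a VEGF receptor, 140 ± 1.51 FPKM. EGFR, to which EREG binds, was low at a mean of 5.72 FPKM. KIT, PRLR and OXTR had means of 0.0100, 0.0200 and 0.0867 FPKM, and FGFR4 was listed at 0.

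Prostaglandins regulate luteal life and vascular change in the ruminant uterus, and 13 of 15 genes for their synthesis, transport and breakdown were expressed (86.7%, against 69.1% of all genes). The inducible cyclooxygenase PTGS2 had 88.3, 93.2 and 85.3 FPKM and the constitutive PTGS1 had 71.4, 71.9 and 76.7 FPKM. PTGS2 was the higher in all 3 libraries by a ratio of 1.21 ± 0.0947. Of the terminal enzymes, PTGES, which makes prostaglandin E, had 371, 347 and 395 FPKM, the prostaglandin D synthase PTGDS had 276, 257 and 308 FPKM, and AKR1B1, a prostaglandin F synthase of bovine endometrium, had 273, 244 and 289 FPKM. HPGD, which inactivates prostaglandins, had 19.6, 20.6 and 21.9 FPKM. The transporter SLCO2A1 had 0.51, 0.45 and 0.29 FPKM, and thromboxane synthase TBXAS1 was listed at 0. The levels of the receptors PTGER2 and PTGFR were low, with means of 0.840 and 0.467 FPKM.

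Genes linked to receptivity of the endometrium and to the nutrient secretion of its glands were expressed in 31 of 41 cases (75.6%), a share near the 69.1% of all genes. The fibronectin receptor subunits ITGB1 and ITGA5 had 869 ± 5.58 and 303 ± 14.3 FPKM, and ITGAV and ITGB3, which together bind SPP1, had 84.3 ± 1.78 and 121 ± 7.75 FPKM. The cysteine protease inhibitors CST3 and CST6 had 327 ± 21.5 and 290 ± 24.7 FPKM. Of the glucose transporters, SLC2A3 had 92.6, 91.3 and 98.2 FPKM and SLC2A1 had 18.1, 16.6 and 19.1 FPKM, and the sodium-coupled SLC5A1 was listed at 0. DRAM1, a lysosomal regulator of autophagy, had 26.9, 32.4 and 35.6 FPKM. S100G, a calcium-binding protein of uterine epithelium, was listed at 0 beside SERPINA14, IHH and LTF.

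Genes not expressed were counted in the same 3 libraries. At a mean under 0.1 FPKM stood 3017 genes (17.6%), and 1606 genes (9.36%) were listed at 0 in every CON library. A further 1996 genes were listed at 0 in 1 or 2 of the libraries. Of the 1606 genes, 653 had only a provisional LOC symbol. Genes described as olfactory receptors, a family named here after its values were seen, made up 19.9% of the 1606, and of 420 such genes 320 were listed at 0 and 2 reached 1 FPKM. The table holds only genes above 0 in at least 1 of the 9 libraries, so that these counts leave out genes silent in the whole series.

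Genes of tissues unrelated to the uterus were mostly unexpressed, 27 of 34 being under 1 FPKM. The expressed share was 20.6%, against 69.1% of all genes. Listed at 0 were the liver genes ALB, APOB and CYP2E1, the muscle genes CKM and MYH7, the intestinal stem cell receptor LGR5 and the pluripotency genes NANOG and LIN28A. The 7 above 1 FPKM were HAND1 (11.4, 8.50 and 11.4 FPKM), a factor of heart and trophoblast, the apolipoprotein APOA1 (6.99 ± 1.01), the thyroid hormone carrier TTR (4.65 ± 1.60), the synaptic protein SNAP25 (0.79, 3.45 and 3.35), the platelet chemokine PF4 (0.85, 3.41 and 0), the elastase CELA1 (1.21 ± 0.206) and the hemoglobin gene HBA (2.59, 10.9 and 9.83).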

How the data were processed

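RNA of 9 bovine endometrial cell cultures had been sequenced as poly-A selected, directional libraries, and the 3 untreated libraries were used here. Values of 0 in the other libraries entered the choice of low-level genes for the check of value ratios. Per the submitters' processing notes and the study's methods, the authors trimmed reads with fastp 0.21.0, removed rRNA with Bowtie2, aligned to ARS-UCD1.2 with HISAT2 2.2.1 and quantified genes with RSEM 1.3.3. The deposited table gives FPKM, computed by the authors for each gene in each library and rounded to 2 decimals, so that values under 0.005 appear as 0. Whether counting used strand is not given in the sources used here. Gene symbols were taken as deposited, since descriptions are sometimes best hits in another species. The table holds no read counts per gene, and the depth that the study states was not used.

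Means, SDs, ranks and shares of the FPKM sum were computed in Python 3.11.15 with pandas 2.3.3 and numpy 2.4.6, without tests, since no groups were compared. The calculations were tested on simulated data. A gene was called expressed at a mean FPKM of at least 1. An order of 2 genes is given with the number of libraries showing it or with its ratio per library. The 28 lists hold cell type markers, transcription factors, receptors, secreted products and pathways. For 9 members the table uses another symbol, and 4 were dropped because the symbol was ambiguous. The members and lists were chosen with earlier results of these data known. Named genes are the 20 with the highest mean that are neither mtDNA-encoded nor ribosomal protein genes, the 5 highest of each of those 2 groups, list members, and the 10 least even by the SD of log2(FPKM + 0.5) among genes at a mean of at least 10. Alternatives were other thresholds, rescaling to TPM, leaving out LOC or mtDNA-encoded genes, and leaving out each library. Some list members are not reported here, and counts given for a list are over all its members in the table. No reference sequence was used.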

Additional observations from a re-analysis of the deposited data

How the results depend on the processing

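Of 74 alternative values of 12 results, 70 stayed within the spread between libraries or, for counts, within 1.5 times the value given above. Part of this was fixed in advance. Leaving out a library cannot move the mean share of a fixed list beyond that spread, and rescaling to TPM cannot move a value of 0. The count of 70 is therefore no measure of robustness. The count of expressed epithelial markers was 2, rose to 4 at a threshold of 0.5 FPKM, and ranged from 2 to 4 on leaving out a library in turn. It was 4 without CON3 and 3 without CON1, where SPINT1 and CRB3, which lie near the threshold, bear on it. Genes listed at 0 numbered 1606, between 1955 and 2029 with 1 library left out, and 3017 when a mean under 0.1 FPKM was counted instead. The share of secreted products with collagen chains was 6.38% and 4.73% without members mostly kept inside the cell or on its surface, an alternative chosen after seeing the data. The count of stromal fibroblast markers stayed at 19 of 19 without any 1 library. Rescaling to TPM lowered the genes counted as expressed from 11856 to 11506.

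No paired analysis was possible because no groups were compared. The table gives no reads per gene, and a gene well under 1 FPKM may rest on very few. Low-level genes were those listed at 0 in several libraries of the whole series, GA and GB included. Each was also above a low floor, with no upper limit, in both CON libraries compared. In CON1 and CON2, 19 of 64 pairs of values stood within 0.1 (log2) of a ratio of 1 and 16 of a ratio of 2. The counts were 22 and 10 of 66 in CON1 and CON3, and 18 and 14 of 68 in CON2 and CON3. The share that chance would give was not computed.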

Other observations

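The untreated cultures carried the transcripts of dividing cells. All 32 genes of the cell cycle list had a mean of at least 10 FPKM, against 49.3% of all genes, with a median of 93.9 FPKM. The list also counts inhibitors of the cycle. CCND1, the cyclin of early G1, had 877, 908 and 903 FPKM, and RRM2, which supplies deoxynucleotides, had 390, 363 and 407 FPKM. The proliferation antigen MKI67 had 86.8, 76.4 and 87.8 FPKM and the topoisomerase TOP2A had 83.2, 75.7 and 84.2 FPKM. The cell cycle inhibitors CDKN1A (180, 148 and 179 FPKM) and CDKN2A (48.5, 48.0 and 40.8 FPKM) were also expressed, and CDKN1B was lowest in CON2, at 24.6 FPKM beside 40.0 and 48.0 FPKM in CON1 and CON3.

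A small set of genes differed between the 3 libraries although they shared a treatment. Of 8468 genes at a mean of 10 FPKM or more, 53 differed by over 2-fold between the highest and the lowest library, and the median SD on the log2(FPKM + 0.5) scale was 0.09. The least even was LOC107131293, with 0, 19.7 and 38.9 FPKM. GNG7, a G protein gamma subunit, had 26.4, 2.94 and 4.96 FPKM, and SP140L, a nuclear body protein, had 19.95, 5.43 and 23.3 FPKM. The proapoptotic BH3-only gene PMAIP1 had 60.8, 16.3 and 50.5 FPKM, and the metallothionein MT1A had 40.9, 13.7 and 38.2 FPKM. ABCD4, a lysosomal cobalamin transporter, had 97.0, 27.9 and 40.8 FPKM, whereas APLN, the peptide apelin, was highest in CON2 with 17.1 FPKM beside 4.73 and 8.35 FPKM. SPHAR had 28.4, 8.39 and 18.5 FPKM, and LOC112445619 and LOC112442408 completed the 10. CON2 was the lowest library for 7 of these 10 genes and CON1 for 3. The part of any technical difference in this was not tested.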
